A study of Mus musculus with 2 samples.

Results

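Fatty acid binding and lipid droplet genes were followed in single mouse hepatocytes, the parenchymal cells of liver, grown in 3 dimensions. The group holds 10 of the 28692 genes in the files, chosen by symbol: Fabp1, Fabp2, Fabp5, Plin2, Plin4, Plin5, Hsd17b13, Cidec, Cideb and Pnpla2. Each symbol matched 1 gene ID, and the measured values played no part in the match. Primary hepatocytes from the liver of C57BL/6 mice were embedded in a basement membrane gel and sequenced with a droplet method (10x Genomics Chromium), which counts transcript molecules as UMIs (unique molecular identifiers) per cell. In the induction library the cells had 3 uM dexamethasone, a synthetic glucocorticoid, in their medium. In the expansion library they had 3 uM CHIR99021, which blocks the kinase GSK3, and 100 ng/mL of the cytokine TNFa, with no dexamethasone. Shared by both media were HGF at 50 ng/mL, EGF at 25 ng/mL, 10 uM of the ROCK inhibitor Y27632, 1 uM of the TGF-beta receptor inhibitor A83-01 and 100 mM nicotinamide. The comparison asks how these genes differed between the medium named for induction and the medium named for expansion. With 1 library per medium, differences were neither tested nor checked in replicates, and the effects of the 3 differing additions cannot be told apart. The labels give neither the number of animals nor the time in culture.

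Fatty acids reach the cytosol of hepatocytes from the blood or from synthesis and are carried there by fatty acid binding proteins. Surplus fatty acids are esterified to triglycerides and stored in lipid droplets, whose surface is coated by perilipins and other droplet proteins. Droplets are emptied by lipases, which release fatty acids for oxidation, and part of the triglyceride leaves the cell in lipoproteins. Liver is known for the binding protein Fabp1, the coat protein Plin2 and the droplet enzyme Hsd17b13.

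Barcodes under 500 genes or above 25% mitochondrial UMIs were removed, and 1245 induction cells with 9201887 UMIs and 1191 expansion cells with 29390000 UMIs remained. The median cell held 6765 UMIs in induction medium and 23184 UMIs in expansion medium, a 3.43-fold gap. The 2 libraries shared 4 cell barcodes. Levels are the UMIs of a gene per 1000000 UMIs of its library (CPM), and 3 UMIs, the floor used here, correspond to 0.326 CPM in the induction library and 0.102 CPM in the expansion library. Ratios are induction over expansion, and all intervals (95%) cover counting error alone. Over the 8480 genes with 50 or more UMIs in each library, the median log2 ratio was 0.22. The cells fell into 6 induction and 7 expansion clusters, made without the 10 genes, and 9 of the 10 hepatocyte markers were present in 50% or more of the cells of each cluster.

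Markers of other cell types that use these genes were mostly missing. Of 7 markers of the small intestine, the main site of Fabp2, 5 had 0 UMIs in both libraries (Cdx2, Lct, Sis, Alpi and Muc2). The list summed to 34.8 CPM in the induction library and 11.7 CPM in the expansion library. Most of it was Apoa4 in induction medium (27.1 CPM) and Vil1 in expansion medium (11.1 CPM). Vil1 stood at 7.72 CPM in induction medium. Of 6 fat cell markers, Adipoq, Lep and Retn had 0 UMIs in both libraries, and the sum of 1144 CPM in induction medium and 1238 CPM in expansion medium was nearly all Lpl. Of 6 macrophage markers, Adgre1, Clec4f and Ptprc had 0 UMIs in both libraries, and the list summed to 0.869 and 1.77 CPM in induction and expansion medium. The 7 stellate cell and fibroblast markers summed to 13.5 and 29.6 CPM in induction and expansion medium, nearly all Reln, with Col1a1 and Acta2 at 0 UMIs. The 6 endothelial markers summed to 0.652 and 0.681 CPM in induction and expansion medium, and the 6 bile duct markers, mostly Sox9, to 92.6 and 126 CPM with Krt7 at 0 UMIs. The part of these cells in the results was not tested.

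Of the 10 genes, 7 reached 10 CPM in at least 1 library, and 6 did so in both. Of these 7, 4 were at least 2-fold higher in induction medium (Plin2, Plin5, Hsd17b13 and Cideb), where 9.17% of the 7220 genes at this level were. Fabp5 was at least 2-fold lower, where 3.17% of those genes were. Fabp1 and Pnpla2 lay within 2-fold, and Fabp2, Plin4 and Cidec stayed under 10 CPM in both libraries. Plin5 reached the minimum through the induction library alone, so its place among the 7 already implies a gap. Scaled to the median gene, 3 members were at least 2-fold higher, with Cideb no longer among them (log2 ratio 0.91), and 1 was lower, beside 6.65% and 4.67% of all genes at this level. The median log2 ratio of the 7 was 1.13, and that of all 7220 genes was 0.21.

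**Figure D1:**
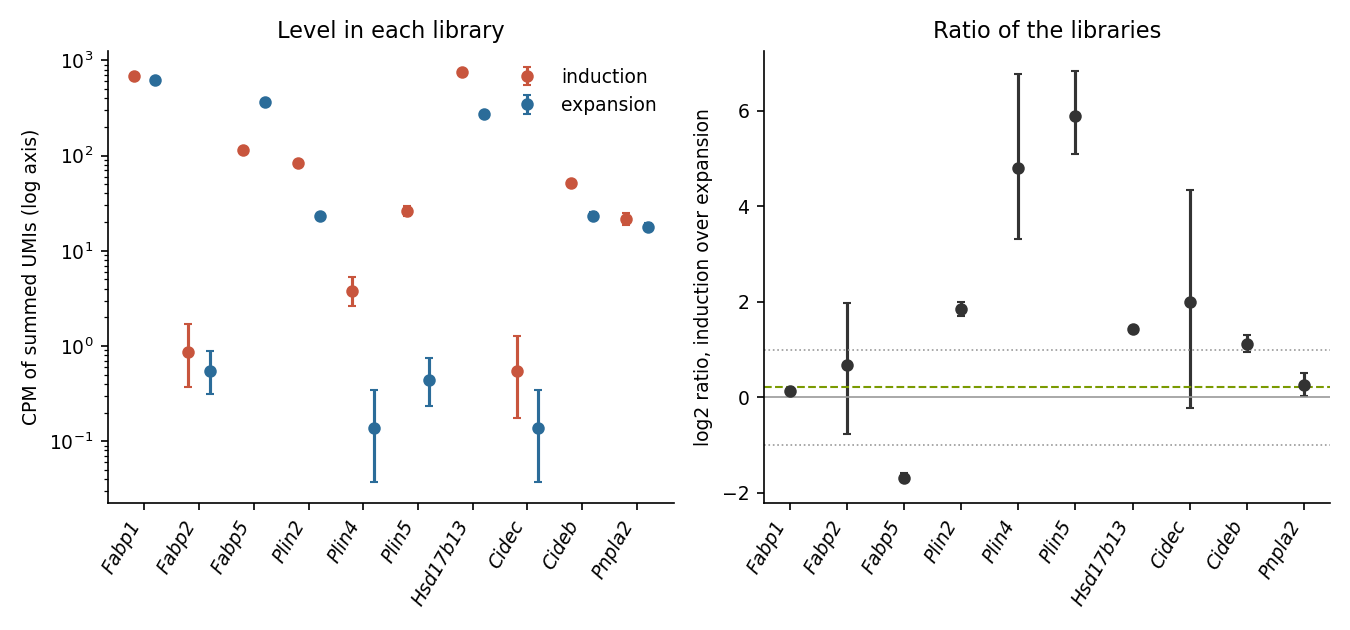
The left panel plots the CPM of summed UMIs of each gene (log axis) in the induction and the expansion library with exact Poisson 95% intervals. The right panel plots the log2 ratio, induction over expansion, with its exact conditional interval; dotted lines mark 2-fold and the dashed line the median gene at 0.22. Fabp5 at -1.68 is the gene below the lower dotted line, and Plin5 at 5.89 is the highest point.

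The binding protein genes did not share a direction. Fabp1, which encodes the abundant liver form, had 6294 UMIs (684 CPM) in the induction library and 18217 UMIs (620 CPM) in the expansion library. Its log2 ratio of 0.14 (0.10 to 0.18) was smaller than that of the median gene. Fabp5, the form first known from skin epidermis, had 1045 UMIs (114 CPM) in induction medium and 10719 UMIs (365 CPM) in expansion medium. It was 3.21-fold lower in induction medium, with a log2 ratio of -1.68 (-1.78 to -1.59). A processed pseudogene of Fabp5 is annotated and is not among the genes counted, so reads shared with it are uncertain. Fabp2, the intestinal form, had 8 UMIs in induction medium and 16 UMIs in expansion medium, and its interval of -0.76 to 1.98 on the log2 scale held a ratio of 1. An antisense gene of opposite strand covers all 4435 bases of Fabp2, and the sources used here do not state whether counting used strand, so even these few UMIs are uncertain. Of the binding proteins outside the group, Fabp3, Fabp4 and Fabp7 had 0 UMIs in both libraries.

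Of the 3 perilipins in the group, Plin2 and Plin5 were at least 2-fold higher in induction medium, and Plin4 stayed under 10 CPM. Plin2, the perilipin found on most hepatocyte droplets, had 765 UMIs (83.1 CPM) in the induction library and 680 UMIs (23.1 CPM) in the expansion library. The ratio was 3.59-fold, or 1.85 on the log2 scale (1.69 to 2.00). Plin5, a perilipin of tissues that oxidise fatty acids, which tethers droplets to mitochondria, had 242 UMIs (26.3 CPM) in induction medium and 13 UMIs (0.442 CPM) in expansion medium. Its log2 ratio was 5.89 (5.09 to 6.82), the largest of the 10 genes. Plin4, best known from fat and muscle, had 35 UMIs in induction medium and 4 UMIs in expansion medium, a log2 ratio of 4.80 (3.32 to 6.76). Plin4 and Plin5 are neighbours on chromosome 17 of GRCm38, with 1797 bases and no annotated gene between them. Plin3, a perilipin made in most tissues that lies outside the group and was named after its values had been seen, stood at 50.8 CPM in induction medium and 50.5 CPM in expansion medium. Its interval of -0.15 to 0.16 on the log2 scale held a ratio of 1.

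Enzymes and fusion factors of the droplet were split. Hsd17b13, a dehydrogenase of the droplet surface that is made mainly in hepatocytes, had 6894 UMIs (749 CPM) in the induction library and 8116 UMIs (276 CPM) in the expansion library. Its log2 ratio was 1.44 (1.39 to 1.49). Cideb, which takes part in droplet fusion and in the loading of lipoproteins with lipid, had 471 UMIs (51.2 CPM) in induction medium and 689 UMIs (23.4 CPM) in expansion medium, a log2 ratio of 1.13 (0.95 to 1.30). Cideb overlaps Nop9, a gene of the other strand, over 1451 bases, so part of its UMIs could come from that gene. Cidec, the fusion factor of fat cells that is also known from fatty liver, had 5 UMIs in induction medium and 4 UMIs in expansion medium. Pnpla2, the lipase of the first step of triglyceride breakdown, stood at 21.6 CPM in induction medium (199 UMIs) and 18.0 CPM in expansion medium (528 UMIs). Its log2 ratio of 0.27 (0.03 to 0.51) lay close to that of the median gene.

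On build GRCm38 (GENCODE M21), Fabp1 lies at chr6:71199827-71205023 and Cidec at chr6:113424634-113435760, while Fabp5 lies at chr3:10012548-10016607 and Fabp2 at chr3:122895072-122899506. Plin4 lies at chr17:56100591-56109803 and Plin5 at chr17:56111601-56117596, Plin2 at chr4:86648386-86670060 and Hsd17b13 at chr5:103955440-103977410. Cideb lies at chr14:55754050-55758458 and Pnpla2 at chr7:141455198-141460743. Fabp1, Fabp2, Fabp5 and Pnpla2 are read from the plus strand and the others from the minus strand.

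Promoter sequences of the genes are shown for Fabp1 and for the 4 genes at least 2-fold higher in induction medium, since dexamethasone acts through a nuclear receptor and several droplet genes are known targets of others. RefSeq promoters were found for 9 of the 10 genes, Fabp5 being without one. Each run starts 250 bases before the RefSeq start and ends before the most upstream annotated start, on GRCm38.p6, 5′ to 3′ on the strand of the gene. Capitals mark the letters AGGTCA, the half-site of many nuclear receptors, on either strand, and in Fabp1 a DR1 element, a pair of such half-sites with 1 base between them. In Cideb, which held no AGGTCA, they mark the letters TATAAA, at -172 to -167 relative to the RefSeq start. DR1 elements are bound by PPAR and by HNF4A.
Fabp1 (chr6:71199629-71199826, plus strand): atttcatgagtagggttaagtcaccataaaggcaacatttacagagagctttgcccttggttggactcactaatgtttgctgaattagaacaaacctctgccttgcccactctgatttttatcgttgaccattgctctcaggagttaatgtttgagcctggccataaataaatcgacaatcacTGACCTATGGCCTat
Plin2 (chr4:86670061-86670309, minus strand): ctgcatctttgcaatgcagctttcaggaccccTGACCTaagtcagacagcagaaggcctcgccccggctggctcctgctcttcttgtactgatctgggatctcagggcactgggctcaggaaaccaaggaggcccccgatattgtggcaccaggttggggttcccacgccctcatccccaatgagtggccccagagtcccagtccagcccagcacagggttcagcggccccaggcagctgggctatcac
Plin5 (chr17:56117597-56117798, minus strand): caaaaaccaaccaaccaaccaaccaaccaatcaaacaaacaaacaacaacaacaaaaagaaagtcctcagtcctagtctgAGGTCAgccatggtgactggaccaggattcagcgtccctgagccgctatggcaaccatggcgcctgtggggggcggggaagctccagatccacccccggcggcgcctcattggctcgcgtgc
Hsd17b13 (chr5:103977411-103977638, minus strand): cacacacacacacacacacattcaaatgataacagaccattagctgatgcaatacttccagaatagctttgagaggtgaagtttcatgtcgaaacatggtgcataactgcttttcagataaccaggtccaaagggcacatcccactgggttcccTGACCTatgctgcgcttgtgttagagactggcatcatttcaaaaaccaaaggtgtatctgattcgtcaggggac
Cideb (chr14:55758459-55758674, minus strand): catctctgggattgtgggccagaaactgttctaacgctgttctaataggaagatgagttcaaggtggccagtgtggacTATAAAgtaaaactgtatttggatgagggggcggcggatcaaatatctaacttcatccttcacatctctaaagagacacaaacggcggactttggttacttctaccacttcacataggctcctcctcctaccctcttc
The DR1 of Fabp1 runs from -67 to -55 relative to the RefSeq start, with 1 mismatch. A DR1 with at most 1 mismatch was found in 0.484% of the 32851 promoter windows of the same 250 bases, and among the 11 windows of the group in Fabp1 alone. AGGTCA on either strand was found in 4 of the 11 windows (Fabp1, Hsd17b13, Plin2 and Plin5) and in 14.0% of all windows. Fabp1 held it again at -9 to -4, past the end of the run shown. Plin5 had another window, not shown, without AGGTCA. A glucocorticoid receptor element, a TGTTCT and its reverse complement facing each other across 3 bases with at most 2 mismatches in all, was found in none of the 11 windows and in 1.56% of all windows. TATAAA, the letters of a TATA box, was found in 2 of the 11 windows (Fabp1 and Cideb) and in 12.4% of all windows. In Fabp1 it lay at -30 to -25, past the end of the run shown. Motif matches describe these letters only.

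Depth differed between the libraries, so shares of cells were compared after each cell was thinned to 2000 UMIs, which left out 14 induction cells and 0 expansion cells. Plin2 was then found in 15.8% of induction cells (194 of 1231; exact binomial interval 13.8 to 17.9) and in 4.45% of expansion cells (53 of 1191; 3.35 to 5.78). Without thinning the shares were 39.4% of induction cells and 39.3% of expansion cells. Fabp5 was found in 13.9% of the thinned induction cells and 38.0% of the thinned expansion cells. The shares of Hsd17b13 were 65.6% and 37.1% in induction and expansion cells, those of Cideb 8.69% and 4.53%, and those of Plin5 4.87% and 0.252%. Fabp1, with nearly equal library levels, was found in 53.3% of induction cells and 42.1% of expansion cells. Unthinned, its order turned round, at 73.5% of induction cells and 85.2% of expansion cells. Plin4 and Cidec were found in 0 of 1191 thinned expansion cells, with an exact binomial upper limit of 0.309% for a UMI at this depth, and without thinning in 4 expansion cells each.

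Since all clusters held hepatocyte genes, Xist served as the gauge of free RNA, an RNA of female cells, in cells with at least 2 UMIs of Y-linked genes. After thinning, Xist was found in 0.735% of these cells in induction medium (2 of 272, median 7899.5 UMIs before thinning) and in 4.51% in expansion medium (27 of 599, median 24990 UMIs). In cells with Xist and no Y-linked UMI it was found in 94.8% and 85.2% of thinned induction and expansion cells. A doublet, here a female and a male cell under 1 barcode, would also give Xist, so these shares are not those of free RNA alone. Before thinning, cells with both kinds of UMI averaged 8.73 Xist UMIs in induction medium and 7.27 in expansion medium. In cells with Xist and no Y-linked UMI the averages were 13.8 and 32.8. The part of doublets was not tested. This gauge is that of 1 abundant RNA and gives no background share for the droplet genes. The expansion shares of Plin2, Pnpla2, Plin5 and Cideb were no higher than 4.53%, and the part of free RNA in them was not tested. By cluster, Plin2 stood at 37.6 CPM (31.6 to 44.4) in expansion cluster 3 and 15.6 CPM (12.6 to 19.0) in expansion cluster 1. The part of free RNA in either value was not tested.

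**Figure D2:**
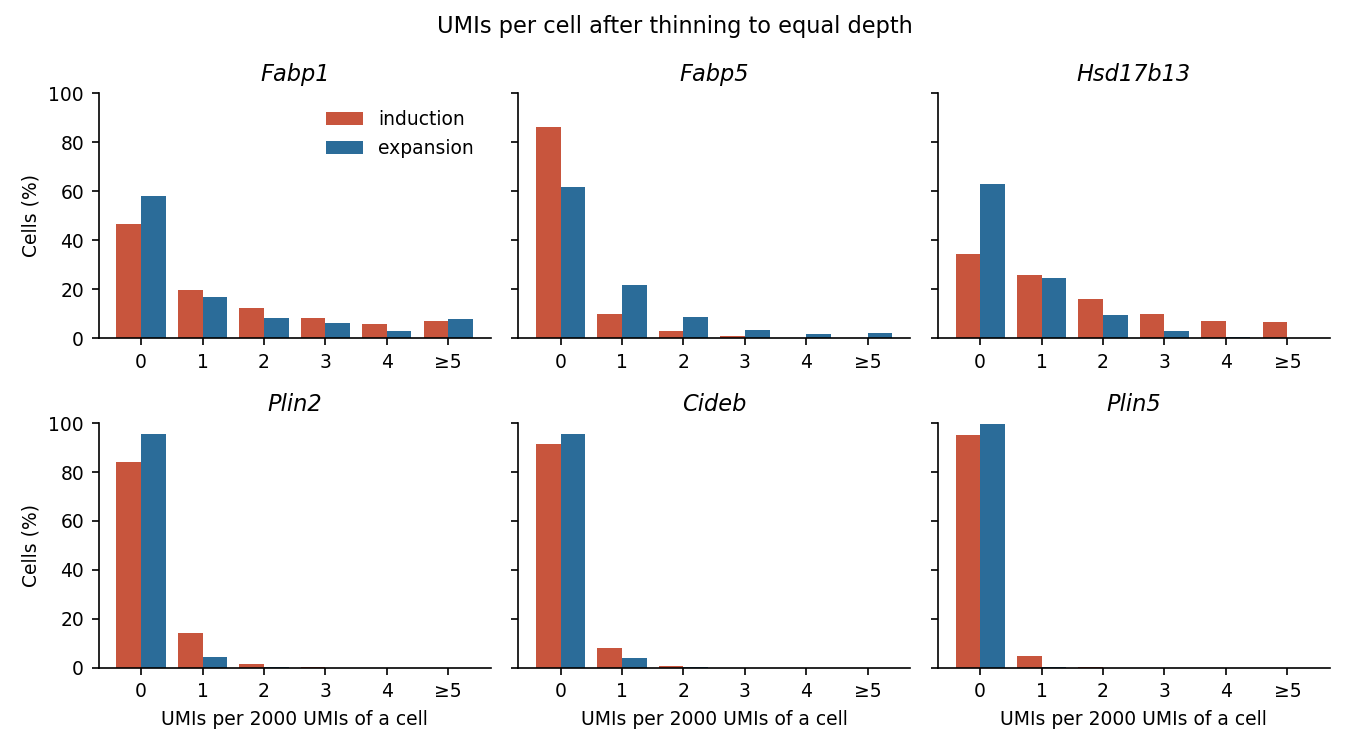
Bars give the percentage of cells with 0 to 4 or at least 5 UMIs of a gene after each cell was thinned to 2000 UMIs, for 1231 induction cells and 1191 expansion cells. Cells without a UMI are fewer in induction medium for Plin2, Hsd17b13 and Fabp1 and more for Fabp5.

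Fabp1, Fabp5 and Hsd17b13 were spread over cells more unevenly than the median gene of like mean in both media. Before thinning, Fabp1 stood at 398 CPM in the median induction cell and 155 CPM in the median expansion cell. The 10% of cells with most Fabp1 began at 1915 CPM in induction medium and 1781 CPM in expansion medium. The variance of its thinned counts was 2.74 times the mean in induction medium and 3.47 times the mean in expansion medium, where genes of like mean had a median of 1.38 and 1.18. The 10% of cells with the highest thinned counts of Fabp1 held 42.1% of its thinned UMIs in induction medium and 52.9% in expansion medium. These cells were picked by the same counts that were summed, which raises the share. For Fabp5 the variance was 1.66 times the mean in induction medium and 2.15 times in expansion medium, where genes of like mean had a median of 1.04 and 1.12. The 10% of cells with the highest thinned counts of Fabp5 held 80.0% of its thinned UMIs in induction medium and 51.1% in expansion medium. A UMI of Fabp5 was found in only 13.9% of thinned induction cells, against 38.0% of thinned expansion cells. Where few cells hold a UMI, the top 10% hold most of them at any spread, so these shares do not compare the media. For Hsd17b13 the variance was 2.02 and 1.28 times the mean in induction and expansion medium, where genes of like mean had a median of 1.44 and 1.09. The ratio of variance to mean grows with the mean, so these genes are not ranked by it. Plin2 and Plin5 stayed near the value of 1 that counting error alone gives, at 1.05 and 1.01 in induction medium. Their thinned means were 0.176 and 0.0504 UMIs per cell, where unevenness is hard to detect. For Pnpla2 the variance was 1.17 and 1.02 times the mean in induction and expansion medium. Genes of like mean had a median of 1.01 and 1.00. For Cideb it was 1.06 and 1.09 times the mean, where genes of like mean had a median of 1.02 and 1.00.

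The clusters, which had been made without these genes, differed widely in Fabp1. Its level was 911 CPM in induction cluster 0, led by the acute phase genes Saa2, Saa1 and Orm2, 906 CPM in the cycling cluster 2 and 857 CPM in cluster 4, led by Slco1b2 and Slc22a30. The intervals of these 3 clusters overlapped. Cluster 1 followed with 693 CPM and cluster 5 with 317 CPM, while cluster 3, led by Sprr1a, Serpine2 and Nes, stood at 20.4 CPM (19 UMIs in 92 cells). In expansion medium Fabp1 stood at 1504 CPM in cluster 0, again led by Saa2 and Orm2, at 841 CPM in the cycling cluster 1 and at 612 CPM in cluster 5, led by H19. Clusters 6 and 2 had 231 and 141 CPM, and clusters 3 and 4, led by Serpine2 and S100a6, had 63.2 and 51.3 CPM with overlapping intervals. The highest cluster was 44.6-fold above the lowest in induction medium and 29.3-fold in expansion medium. Cluster 4 of the expansion library held 25 cells, and its hepatocyte markers summed to 5614 CPM, against 28480 to 79698 CPM in the other expansion clusters.

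Plin2 ranged 1.73-fold over induction clusters and 2.42-fold over expansion clusters, and its levels in the media did not overlap. It lay between 60.3 CPM (45.5 to 78.2) and 104 CPM in the 6 induction clusters and between 15.6 CPM and 37.6 CPM (31.6 to 44.4) in the 7 expansion clusters. The highest expansion cluster was the one led by Serpine2. Plin5 had 3 to 104 UMIs per induction cluster, or 3.23 to 39.5 CPM, and 0 to 5 UMIs per expansion cluster. Hsd17b13 ranged from 185 to 1303 CPM over induction clusters and from 19.5 to 443 CPM over expansion clusters, highest in the acute phase cluster of either medium. Cideb was highest in the same clusters, at 74.0 CPM in induction medium and 37.9 CPM in expansion medium. Fabp5 ranged from 26.1 to 188 CPM over induction clusters and from 123 to 683 CPM over expansion clusters. Pnpla2 ranged from 15.1 to 33.4 CPM over induction clusters and from 14.3 to 21.3 CPM over expansion clusters, the narrowest range in expansion medium among the genes of at least 10 CPM.

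**Figure D3:**
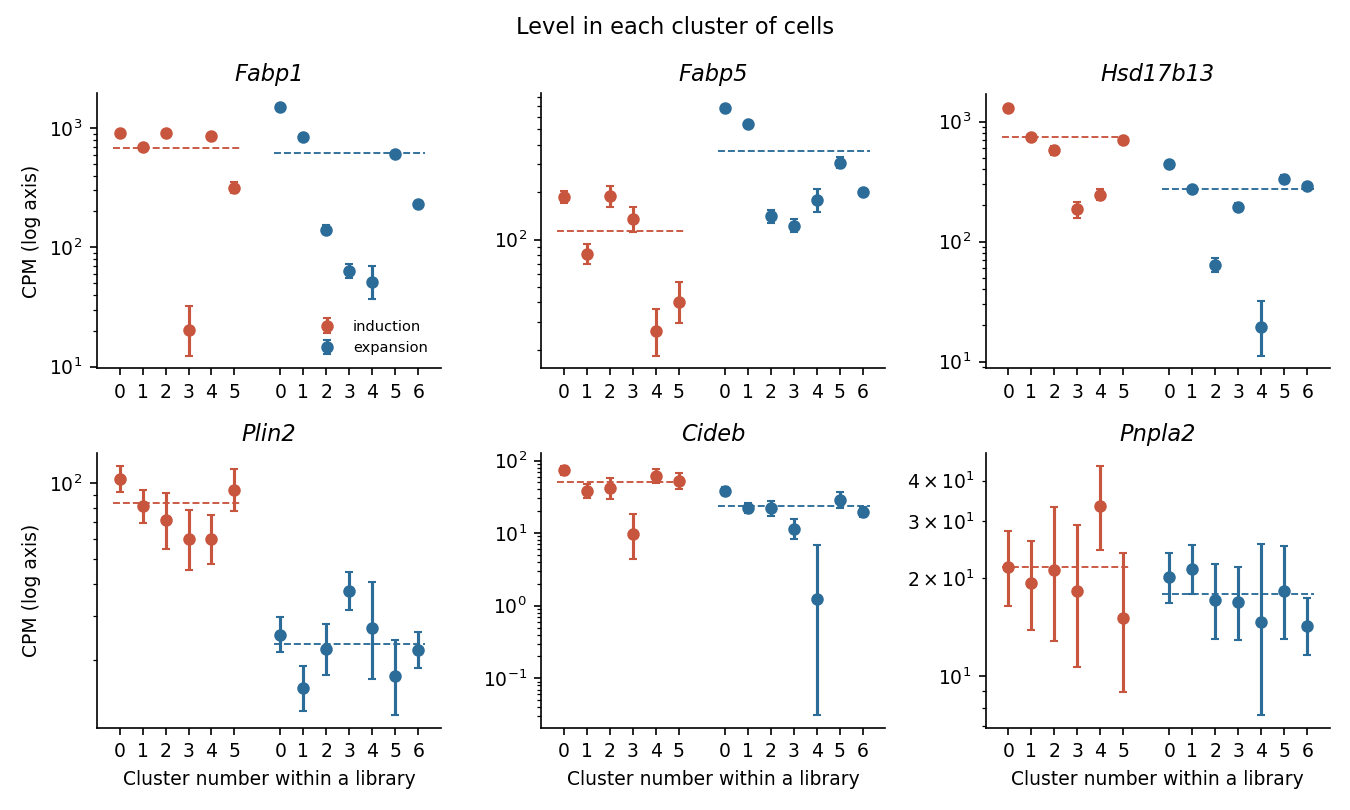
Points give the CPM of a gene (log axis) in each cluster, numbered within its library, with exact Poisson 95% intervals, and dashed lines the level of the whole library. Plin2 lies higher in all 6 induction clusters than in any of the 7 expansion clusters, while the clusters of Fabp1 spread from 20.4 to 911 CPM and from 51.3 to 1504 CPM.

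Clusters of the media with shared leading genes were set side by side, since the clusters were found in each library separately. Among the 10 leading genes, the acute phase clusters (0 and 0) shared 5, the cycling clusters (2 and 1) 5, the clusters led by Slc22a30 (4 and 2) 2 and the clusters with Serpine2 (3 and 3) 2. Induction cluster 3 also shared 4 with expansion cluster 4, the one led by S100a6. Fabp1 was 1.65-fold lower in the acute phase cluster of induction medium (911 CPM, against 1504 CPM in expansion medium) and 6.08-fold higher in the Slc22a30 cluster (857 CPM, against 141 CPM). In the cycling clusters it stood at 906 CPM in induction medium and 841 CPM in expansion medium, with an interval that held a ratio of 1. In the Serpine2 clusters it stood at 20.4 CPM in induction medium and 63.2 CPM in expansion medium. Hsd17b13 was 2.94-fold, 2.11-fold and 3.85-fold higher in the acute phase, cycling and Slc22a30 clusters of induction medium. In the Serpine2 clusters it stood at 185 CPM in induction medium and 193 CPM in expansion medium. Plin2 was 4.11-fold, 4.60-fold and 2.71-fold higher in the acute phase, cycling and Slc22a30 clusters of induction medium and 1.60-fold higher in the Serpine2 cluster. Fabp5 was 3.66-fold, 2.88-fold and 5.38-fold lower in the acute phase, cycling and Slc22a30 clusters of induction medium, while in the Serpine2 pair its interval held a ratio of 1 (134 CPM in induction medium and 123 CPM in expansion medium). Set against expansion cluster 4, induction cluster 3 had 185 CPM of Hsd17b13 and cluster 4 had 19.5 CPM, while Fabp1 stood at 20.4 and 51.3 CPM. The differences between pairs were not tested.

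Each library held cells of both sexes, and hence of more than 1 animal, which were told apart by Xist and by 4 Y-linked genes. The induction library had 412 cells with Xist and no Y-linked UMI and 503 cells with a Y-linked UMI and no Xist, and the expansion library had 325 and 505. Both kinds of UMI were found in 22 induction cells and 275 expansion cells. Neither kind was found in 308 induction cells, with a median of 5701.5 UMIs, and 86 expansion cells, with a median of 16678 UMIs. The kinds of cells thus depend on depth and may not be like sets in the 2 media. In cells with Xist, Fabp1 stood at 690 CPM in induction medium and 306 CPM in expansion medium, a log2 ratio of 1.17 (1.09 to 1.26). In cells with Y-linked UMIs it stood at 645 CPM in induction medium and 741 CPM in expansion medium, a log2 ratio of -0.20 (-0.26 to -0.14). The log2 ratio of Fabp1 in the whole libraries, 0.14, lay between these values and also covers cells of neither kind. What the kinds of cells contribute to it was not tested. Fabp5, Plin2, Plin5 and Hsd17b13 kept their direction in both kinds of cells. For Plin2 the log2 ratio was 1.57 in Xist cells and 2.03 in Y cells, that of Fabp5 -1.45 and -1.71, that of Hsd17b13 1.61 and 1.41, and that of Plin5 5.47 and 6.06. Cideb was 2.47-fold higher in Xist cells and 1.77-fold higher in Y cells. Pnpla2 had a log2 ratio of 0.75 (0.35 to 1.15) in Xist cells, and stood at 18.6 CPM in induction medium and 18.7 CPM in expansion medium in Y cells. Sex and animal cannot be told apart here.

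**Figure D4:**
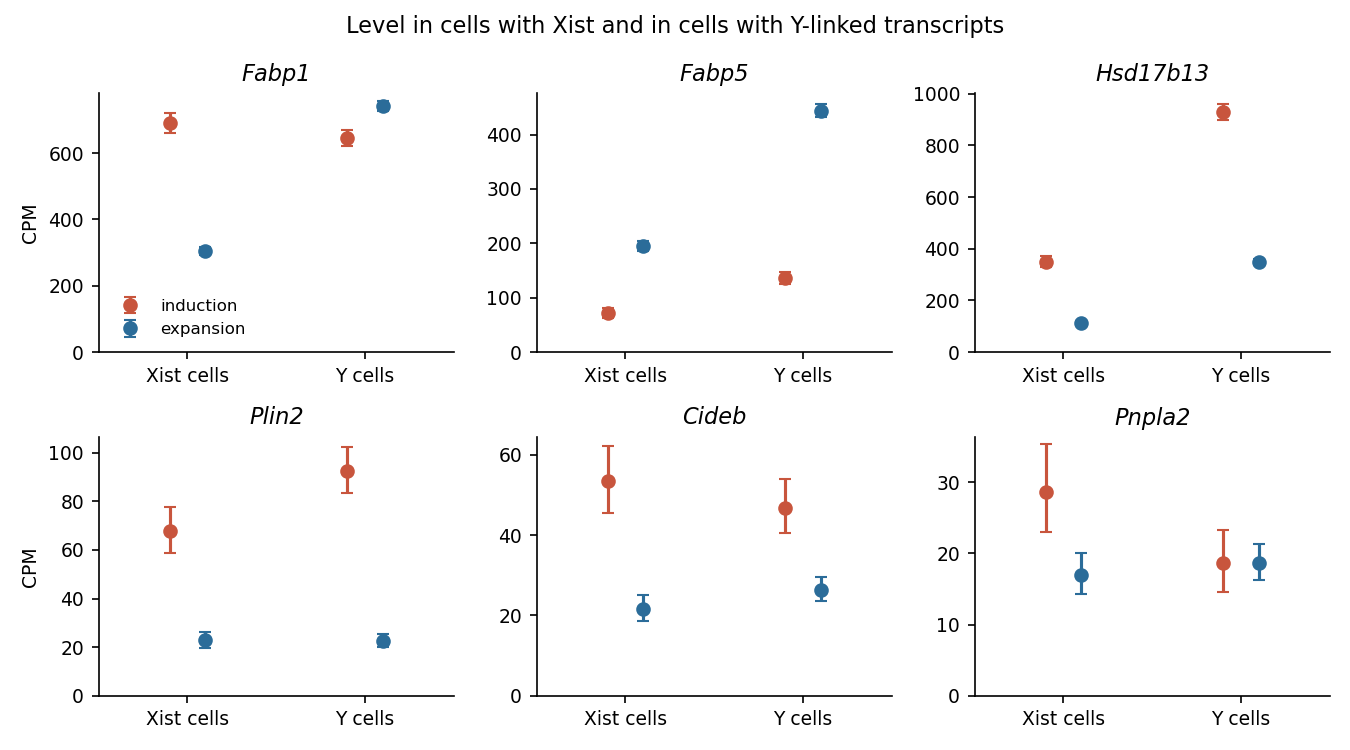
Points give the CPM of a gene in the induction and the expansion library, in cells with Xist and no Y-linked UMI (left) and in cells with a Y-linked UMI and no Xist (right), with exact Poisson 95% intervals. Fabp1 is higher in induction medium in the first kind of cell (690 and 306 CPM) and lower in the second (645 and 741 CPM).

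Across cells of a library, the genes of the group were tied weakly after thinning, except Fabp1 and Fabp5 in expansion medium. The largest Pearson r between thinned log2 counts was that of Fabp1 and Fabp5, 0.09 over 1231 induction cells and 0.41 over 1191 expansion cells, and without thinning 0.20 and 0.63. Fabp1 and Hsd17b13 had an r of 0.07 in induction medium and 0.23 in expansion medium, and without thinning 0.15 and 0.48. These cells share a library and depth, and the counts are sparse, so the values are descriptions. The 1680 other genes found in at least 10% of thinned cells of both libraries were ranked by the lower of their induction and expansion r. The highest for Fabp1 were the acute phase gene Saa3 (0.37 in induction and 0.53 in expansion medium), Apom (0.32 and 0.47) and Dbi (0.30 and 0.33). For Hsd17b13 they were Hpx (0.32 in induction and 0.29 in expansion medium), Hp (0.34 and 0.28) and Alb (0.27 and 0.30), genes of secreted plasma proteins.

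Other genes of lipid handling are given by the same size rule, with the share of all genes stated above as background. Of 11 measured droplet proteins outside the group, 1 was at least 2-fold higher in induction medium, Mettl7b (17.7 and 4.97 CPM in induction and expansion medium), and 10 lay within 2-fold. The most abundant of them, Aup1, stood at 97.4 CPM in induction medium and 91.2 CPM in expansion medium, and Hilpda, an inhibitor of the Pnpla2 lipase, at 12.7 and 6.40 CPM. Of 5 measured lipases and cofactors, 3 were higher. G0s2, the other inhibitor of Pnpla2, stood at 27.2 CPM in induction medium and 2.25 CPM in expansion medium, a log2 ratio of 3.60 (3.20 to 4.01). Aadac, a microsomal lipid esterase, stood at 41.3 and 12.0 CPM in induction and expansion medium. The lysosomal lipase Lipa, at 47.2 CPM in induction medium and 28.2 CPM in expansion medium, lay within 2-fold and was not among the 3. Of 4 measured genes of uptake and binding, the acyl-CoA binding protein Dbi (1838 CPM in induction medium and 914 CPM in expansion medium) and the lipid carrier Scp2 (571 and 167 CPM) were at least 2-fold higher.

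Genes that make and export triglyceride were also measured. Of 9 measured genes of triglyceride synthesis, 5 were at least 2-fold higher in induction medium and 0 lower, with a median log2 ratio of 1.20. The acyltransferase Dgat2 stood at 539 CPM in induction medium and 160 CPM in expansion medium, and the phosphatidate phosphatases Lpin1 and Lpin2 at 96.0 and 24.9 CPM and at 88.5 and 16.6 CPM. Of 5 genes of lipoprotein export, 4 were higher, with Apob, the lipoprotein backbone, at 1008 and 303 CPM in induction and expansion medium, Apoc3 at 945 CPM in induction medium and 107 CPM in expansion medium and the lipid transfer protein Mttp at 139 and 34.4 CPM. Of 8 measured genes known as PPARα targets, 5 were higher and 2 lower (Acot1 and Vnn1, named after their values had been seen). The lipase inhibitor Angptl4 stood at 61.1 CPM in induction medium and 7.04 CPM in expansion medium. Of 8 measured fatty acid synthesis genes, 7 were higher, among them the desaturase Scd1 (2481 CPM in induction medium and 458 CPM in expansion medium), Acaca (218 and 32.6 CPM) and Thrsp (135 and 1.63 CPM).

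Regulators of these genes were split by size. Ppara, a receptor for fatty acids, stayed under 10 CPM, at 5.76 CPM in induction medium and 1.43 CPM in expansion medium (log2 ratio 2.01, 1.40 to 2.63). Pparg stood at 6.96 CPM in induction medium and 3.91 CPM in expansion medium (log2 ratio 0.83, 0.37 to 1.28), and the coactivator gene Ppargc1a at 2.61 and 1.46 CPM (0.83, 0.05 to 1.59). Ppard stood at 10.3 CPM in induction medium and 12.7 CPM in expansion medium, with an interval that held a ratio of 1. The partner receptor Rxra (100 CPM in induction medium and 20.4 CPM in expansion medium), the sugar sensor Mlxipl (106 and 32.6 CPM) and Hnf4a (250 and 93.4 CPM) were at least 2-fold higher. Nr1h3 (0.95), Cebpa (0.99), Cebpb (0.43), Srebf1 (0.33) and the glucocorticoid receptor gene Nr3c1 (0.39) had log2 ratios under 1.

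**Figure D5:**
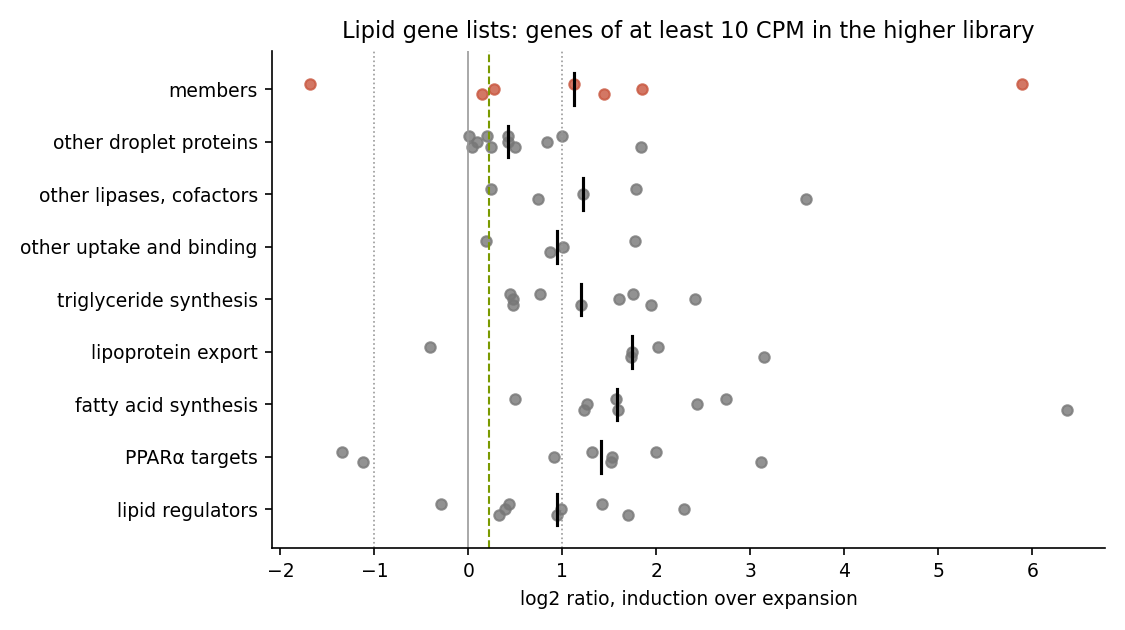
Points give the log2 ratio, induction over expansion, of each gene of at least 10 CPM in the higher library, by list, with black ticks at the list medians. Dotted lines mark 2-fold and the dashed line the median gene at 0.22. The 7 measured members reach from -1.68 to 5.89, and the other droplet proteins centre at 0.42.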

How the data were processed

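UMI counts of 1 induction and 1 expansion library were used as the authors deposited them, as raw counts per gene and cell barcode. Per the submitters' processing notes, they come from Cell Ranger 2.1.1 and build mm10. The sources used here give neither the annotation nor the use of strand. Counts of 1245 and 1191 cells were summed and scaled to CPM. Intervals are exact (Poisson, conditional binomial, Clopper-Pearson) and cover counting error only; no test was made, since cells of 1 library are not replicates. Size calls took a ratio of 2 at 10 CPM in the higher library. Clusters were found per library with scanpy 1.11.5 (Leiden in igraph 0.11.9, resolution 0.6, 20 components of 2000 variable genes, 15 neighbours). Doublets were kept; Scrublet marked 2 induction and 4 expansion cells. All 10 members were named; of other lists, the most abundant gene and the 2 largest ratios at 10 CPM, and all regulators. A gene that met this rule is not reported here. Members and lists were chosen with earlier results of these data known. Coordinates are from GENCODE M21 (GRCm38), promoters from RefSeq (GRCm38.p6). The ratio code was tested on simulated counts. Alternatives were other cell filters, scalings, weights, depths and subsets of cells.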

Additional observations from a re-analysis of the deposited data

Results flagged for a closer look

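Fabp1 had opposite directions in the 2 kinds of cells told apart by sex-linked transcripts. Its log2 ratio, induction over expansion, was 1.17 in Xist cells and -0.20 in cells with Y-linked UMIs, and both intervals excluded a ratio of 1. The difference between the 2 was not tested, since each kind of cell came from 1 library per medium. With at least 5 Xist UMIs per cell the value was 1.34, and with at least 2 Y-linked UMIs it was -0.19, thresholds chosen after seeing the data. Of the cells in the clusters with Slc22a30 among their leading genes, 97.8% in induction medium and 86.5% in expansion medium were Xist cells. Whether these clusters carry the difference was not tested.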

How the results depend on the processing

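No paired analysis was possible because each medium had 1 library. The count of 4 members at least 2-fold higher became 2 without induction cluster 0, the acute phase cluster, an alternative chosen after seeing the data, in which Hsd17b13 had a log2 ratio of 0.93 and Cideb of 0.84. Under the other settings it was 3 to 6, with 6 when no CPM minimum was set, and the count of lower members stayed at 1. With whole clusters kept, the log2 ratio ranged over all settings from 1.49 to 2.07 for Plin2, from -1.91 to -1.45 for Fabp5, from 1.21 to 1.67 for Hsd17b13, from 4.32 to 6.68 for Plin5 and from 0.68 to 1.32 for Cideb. That of Fabp1 ranged from -0.20 to 1.34 and was -0.08 both relative to the median gene and without mitochondrial and ribosomal protein genes. It was 0.84 without expansion cluster 0 and -0.12 without expansion cluster 6; the cause was not tested. Pnpla2 ranged from -0.01 to 0.75. Plin4 fell to 1.69 on the log2 scale after thinning, where its expansion count was 0, so its ratio is limited by depth, as are Fabp2 and Cidec.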

Other observations

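Within a library, cells with Xist and cells with Y-linked UMIs also differed in these genes. In induction medium Hsd17b13 stood at 350 CPM in Xist cells and 928 CPM in Y cells, and in expansion medium at 115 and 349 CPM. The gap was present inside clusters that held at least 20 cells of each kind: its log2 ratio, Xist over Y cells, lay below 0 in all 5 such induction clusters and all 4 such expansion clusters, from -1.60 to -0.25 and from -1.71 to -0.41. Every one of these intervals excluded a ratio of 1. Fabp1 had no such common direction inside clusters, with -1.31 in the cycling expansion cluster and 0.55 in the acute phase induction cluster. Fabp5 stood at 71.3 CPM in Xist cells and 136 CPM in Y cells of induction medium, and at 195 and 444 CPM in expansion medium.

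Depth moved with some levels. In induction medium Plin5 stood at 22.4 CPM in cells above the median depth and 34.2 CPM in the others, while Plin2 stood at 83.7 and 81.9 CPM. In expansion medium Fabp1 stood at 672 CPM in cells above the median depth and 521 CPM in the others. The part of depth in these values was not tested.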
